A study of Mus musculus with 16 samples.

Results

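The rapid immediate early genes are 37 genes picked by name as transcription factors and regulators that neurons transcribe directly in response to activity, out of 49315 genes in the count table. All 37 passed the filter on low counts and were among the 17469 genes tested. The data are RNA-seq gene counts from the hippocampus of Kcna1 knockout (KO) and wild type (WT) mice fed a Standard Diet or a Ketogenic Diet, a high-fat, low-carbohydrate diet used against epilepsy. Kcna1 is the gene of a subunit of the potassium channels that open with voltage, and its loss gives mice spontaneous seizures. Each genotype was measured on each diet, giving 4 groups of 4 libraries, 16 in all. Column headers name each library by an animal tag with its genotype and diet, and these tags are used here. The labels used here do not give strain, age, sex, duration of the diet, whether seizures were seen or the time between handling and tissue collection, and the allele is named only as a knockout. They do not say how the samples of a group were raised or housed, so p-values measure the spread between these libraries. In bulk tissue, fewer cells of a type and less RNA per cell cannot be told apart.

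Immediate early genes are transcribed within minutes of calcium entry and kinase signalling, from factors such as CREB and SRF that are already bound at their promoters, and without new protein synthesis. Many encode transcription factors (the AP-1, EGR, NR4A, KLF and NPAS4 proteins) that switch on a later wave of effectors, and others encode brakes on the same signals, such as the MAP kinase phosphatases. Their RNAs are short-lived, so in hippocampus they are widely used as a trace of recent neuronal activity, including seizures.

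Total counts ran from 13440230 to 22309504 per library. Kcna1 measured 107 to 130.1 CPM (counts scaled to a common library size) in the 8 WT libraries and 43.4 to 47.2 CPM in 7 of the 8 libraries labelled KO, but 82.0 CPM in KC888LL, labelled KO on the standard diet. Its log2 fold change, KO over WT, was -1.13 ± 0.15 (SE, adjusted p = 0.0339) on the standard diet and -1.38 ± 0.15 (SE, adjusted p = 0.00320) on the ketogenic diet. The genotype of KC888LL is therefore in doubt, and so is what the standard-diet values of the libraries labelled KO, which include it, stand for. It is named in what follows. For KO against WT on the standard diet, the edgeR calls and the counts of genes whose groups did not overlap are also given without it. Most other standard-diet values, those of cell type markers among them, include it. A second library, KC913RR (KO, ketogenic diet), stands apart in the listed genes themselves and is treated the same way. Defining markers of dentate granule cells (5 of 5 genes), CA1 pyramidal cells (6 of 6) and CA3 pyramidal cells (4 of the 4 found in the table) were above 0 in all 16 libraries. The Y-linked gene Ddx3y was at 56.5 CPM or above in KC890RL, KC872RL, KC873RR and KC846L and at 1.63 CPM or below in the other 12, so the sexes were not balanced between groups and KO on the ketogenic diet had no such library.

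Among the 37 genes, RNA level per kilobase of exon spanned a wide range. In WT on the standard diet the highest were Jund at 54.5, Jun at 40.5, Arc at 26.8 and Junb at 23.3 CPM per kb (group means). Egr1 (21.4), Nr4a3 (17.7), Dusp6 (16.7) and Nr4a1 (15) followed. The lowest were Zfp36 (0.761), Egr2 (0.750), Maff (0.333) and Atf3 (0.261 CPM per kb). Fos, the gene most often used as a marker of firing neurons, stood at 4.93 CPM per kb and Npas4 at 2.13. Exons of 8 listed genes overlap those of an antisense gene (Jun, Junb, Jund, Dusp1, Dusp5, Zfp36, Tiparp and Csrnp1). Whether the counting used strand is not given in the sources used here, so reads of such pairs cannot be told apart.

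In the edgeR fit of all 16 libraries no listed gene passed an adjusted p of 0.05 between the genotypes. Several classic activity genes nevertheless had negative log2 fold changes, KO over WT, on either diet. The most negative, in order, were those of Egr2, Arc, Fos, Egr4, Egr1, Nr4a1 and Npas4 for the standard diet and those of Egr2, Npas4, Arc, Nr4a1, Egr1 and Dusp1 for the ketogenic diet, while Jun had a positive value on both. On the standard diet 0 of the 37 genes were called by edgeR (0.00572% of all tested genes were), and DESeq2 called 1, Jun (0.516%). Shares for DESeq2, here and below, are of the 33132 genes to which it gave a p-value, low-count genes included. They are not on the same base as the shares of the 17469 filtered genes in edgeR. At an unadjusted p under 0.05, 12 of the 37 lay lower in KO (6.69% of all tested genes did) and 3 lay higher (7.64%). The 12 were Junb, Egr1, Egr2, Egr4, Arc, Nr4a1, Nr4a2, Nr4a3, Dusp1, Dusp5, Dusp6 and Sik1, and the 3 were Jun, Klf6 and Atf3. On the ketogenic diet 0 of the 37 were called by edgeR (0.0172% of all tested genes), while DESeq2 called 4, Dusp1, Junb, Npas4 and Nr4a1 (0.124%), and a fit of the 8 libraries compared called 1, Npas4 (0.0238%). There 13 lay lower at an unadjusted p under 0.05 (3.97% of all tested genes) and 1, Jun, lay higher (5.24%). All KO libraries lay below all WT libraries for Egr3, Egr4, Arc and Dusp1 on the standard diet, 4 of 37 genes (2.89% of all tested genes), and all lay above for 0 (2.97%). On the ketogenic diet all KO libraries lay below for 9, Junb, Egr1, Egr2, Arc, Npas4, Nr4a1, Ier2, Dusp6 and Klf4 (1.98%), and above for 1, Jun (2%). Counted without KC888LL, a choice made after its values were seen, all 3 remaining KO libraries on the standard diet lay below WT for 16 genes (11.4% of all tested genes), namely Fos, Junb, Egr1, Egr2, Egr3, Egr4, Arc, Npas4, Nr4a1, Nr4a2, Nr4a3, Dusp1, Dusp4, Dusp6, Klf10 and Sik1. They lay above for 4, Jun, Klf6, Atf3 and Rgs2 (10.8%). Without KC913RR, chosen likewise, the count on the ketogenic diet was 19 below (3.69%) and 1 above, Jun (3.69%). The median log2 fold change of the 37 was -0.23 on the standard and -0.22 on the ketogenic diet, against 0.0044 and 0.0035 over all tested genes. On the ketogenic diet that median moved to -0.53 without KC913RR, -0.14 without KC916RRL, -0.046 without KC934R and -0.094 without KC935LL.

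The KO-against-WT comparisons on the 2 diets share no library, though they share 1 estimate of the spread. Of the 37 genes, 19 had a log2 fold change below 0 on both diets, 9 above 0 on both and 9 opposite signs, so 75.7% had the same sign, as did 57.3% of all tested genes. Junb, Egr1, Egr2, Egr4, Arc, Nr4a1, Nr4a2, Dusp1, Dusp6 and Sik1 lay lower at an unadjusted p under 0.05 on both diets. These are 10 of 37 genes (27.0%), and 118 of the 17469 tested genes (0.675%) met the same rule. In the other direction Jun was the 1 listed gene, with 162 of all tested genes (0.927%).

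**Figure D1:**
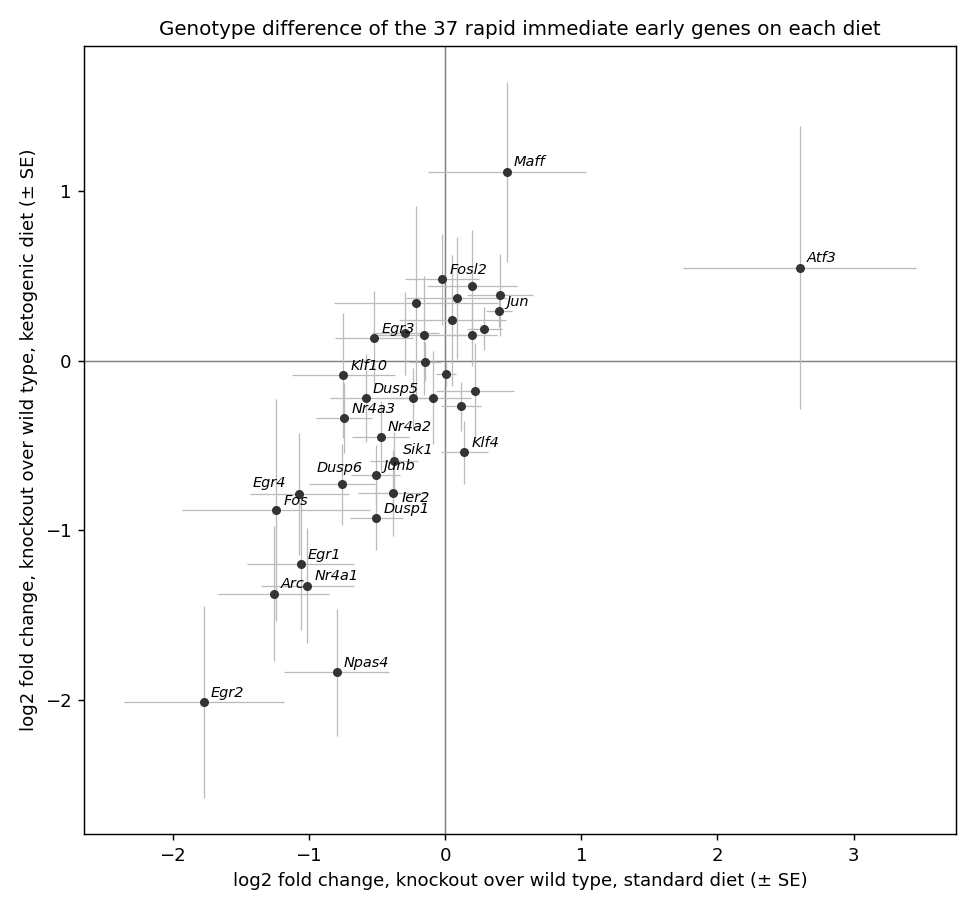
Log2 fold change, KO over WT, on the standard diet (x axis) and on the ketogenic diet (y axis) for the 37 genes; points are edgeR estimates and bars are ± 1 SE. Points for Egr2, Arc, Egr1, Nr4a1 and Npas4 sit in the lower left, Jun lies above 0 on both axes, and Atf3 and Maff have wide bars.

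Arc and Npas4 come first by role. Arc encodes a synaptic protein that removes AMPA receptors and forms capsid-like particles, and Npas4 encodes a neuron-specific transcription factor that responds to calcium entry and adjusts inhibitory synapses. In WT on the standard diet Arc (chr15:74669083-74672570, GRCm38) measured 73.2, 79.6, 84.6 and 89.6 CPM. Libraries labelled KO on that diet held 16.05, 20.04 and 31.9 CPM of Arc in 3 cases and 68.5 CPM in KC888LL, so the groups did not overlap but KC888LL sat just under WT. On the ketogenic diet WT held 126, 134, 147 and 150.4 CPM and KO held 27.2, 42.99, 69.2 and 76 CPM, again without overlap. The Arc log2 fold change, KO over WT, was -1.26 ± 0.41 (SE, adjusted p = 0.217) on the standard diet and -1.38 ± 0.40 (SE, adjusted p = 0.404) on the ketogenic diet. Npas4 (chr19:4984355-4990316) measured 7.002, 8.61, 9.25 and 10.4 CPM in WT on the standard diet. In KO it measured 1.78, 3.27 and 4.89 CPM in 3 libraries and 10.2 CPM in KC888LL, inside the WT range. Npas4 on the ketogenic diet read 18.1, 19.9, 20.9 and 23.2 CPM in WT and 3.54, 5.35, 5.46 and 8.82 CPM in KO, where every KO library lay below every WT library. For Npas4 the log2 fold change was -0.80 ± 0.39 (SE, adjusted p = 0.365) on the standard and -1.84 ± 0.37 (SE, adjusted p = 0.193) on the ketogenic diet.

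**Figure D2:**
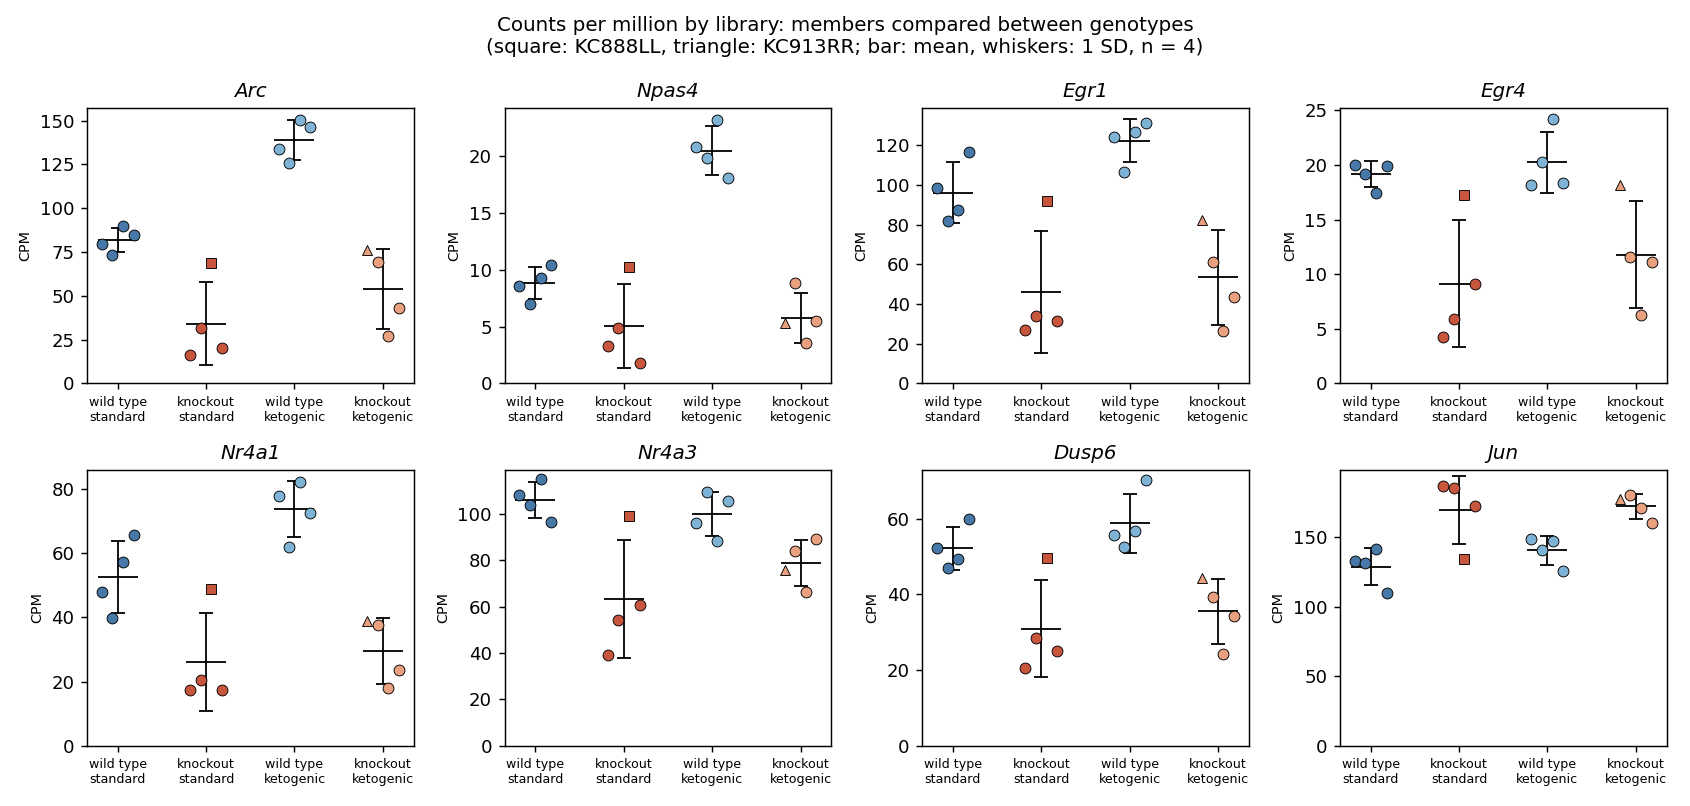
CPM by library for Arc, Npas4, Egr1, Egr4, Nr4a1, Nr4a3, Dusp6 and Jun in the 4 groups (y axes start at 0; bars are means, whiskers 1 SD, n = 4). KC888LL, drawn as a square, is the highest of the libraries labelled KO on the standard diet for Arc (68.5 CPM) and Egr1 (92.1 CPM), and Arc in WT on the ketogenic diet sits above all other groups.

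The EGR zinc finger factors bind GC-rich promoter elements, and Egr1 is the best known of them in memory and seizure studies. On the standard diet 4 of 4 had a log2 fold change below 0 and 3 of 4 an unadjusted p under 0.05, against 8544 of 17469 tested genes below 0 and 6.69% lower at that p. Egr1 in WT on that diet measured 81.8, 87.3, 98.5 and 117 CPM. KO libraries held 26.7, 31.2 and 34.1 CPM of Egr1 in 3 cases, and KC888LL held 92.1 CPM, which is inside the WT range. Egr1 on the ketogenic diet was 107, 124, 127 and 131 CPM in WT and 26.6, 43.4, 61.2 and 82.5 CPM in KO, and the groups did not overlap. The Egr1 log2 fold change was -1.06 ± 0.39 (SE, adjusted p = 0.260) on the standard and -1.2 ± 0.39 (SE, adjusted p = 0.424) on the ketogenic diet. Egr2, a low-abundance relative, had log2 fold changes of -1.77 ± 0.59 (SE, adjusted p = 0.216) and -2.02 ± 0.57 (SE, adjusted p = 0.404), with group ranges of 1.21 to 3.77 CPM (WT) and 0.101 to 1.68 CPM (labelled KO, KC888LL at 1.68) on the standard diet. Egr4 measured 17.5, 19.2, 19.9 and 20.04 CPM in WT on the standard diet, 4.23, 5.89 and 9.13 CPM in 3 KO libraries and 17.3 CPM in KC888LL, just under the lowest WT library. Egr3 on the standard diet read 38.03, 38.3, 39.4 and 40.7 CPM in WT, 22.6, 24.04 and 27.9 CPM in 3 KO libraries and 34.5 CPM in KC888LL. It was uneven in KO on the ketogenic diet, where 28.01, 34.4 and 38.96 CPM in 3 libraries stood beside 88.97 CPM in KC913RR, and WT held 39.7, 41.3, 44.4 and 47.7 CPM. Its log2 fold change on that diet was 0.13 ± 0.28 (SE, adjusted p = 0.910) and, without KC913RR, -0.36 (adjusted p = 0.650).

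The NR4A orphan nuclear receptors are transcription factors that need no known ligand and are classic targets of cAMP and calcium signalling through CREB. All 3 lay lower in KO at an unadjusted p under 0.05 on the standard diet (6.69% of all tested genes did), and Nr4a1 and Nr4a2 did on the ketogenic diet (3.97%). Their promoters are shown because they are the 3 listed genes with 4 or more copies of the CRE core, the short stretch that CREB recognises. The windows run from 250 bases before to 50 bases after the start of transcription (RefSeq, GRCm38.p6), with each TGACG, or CGTCA where it lies on the other strand, in capitals. Npas4 and Dusp1 are added as other genes that lay lower in KO on the ketogenic diet, 2 of the 13 that did at an unadjusted p under 0.05. Of those 13, some with a window are not shown: Egr4 held 2 cores, Egr2 up to 2, Junb and Klf4 1 each and Dusp6 0.
Nr4a1, chr15:101266596-101266895 (plus strand): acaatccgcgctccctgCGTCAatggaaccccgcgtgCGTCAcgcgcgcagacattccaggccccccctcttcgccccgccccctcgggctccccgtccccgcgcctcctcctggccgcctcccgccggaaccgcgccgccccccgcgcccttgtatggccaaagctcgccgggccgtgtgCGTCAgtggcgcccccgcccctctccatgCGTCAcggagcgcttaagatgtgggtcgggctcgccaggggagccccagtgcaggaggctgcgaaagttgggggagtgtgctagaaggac
Nr4a2, chr2:57123954-57124253 (minus strand): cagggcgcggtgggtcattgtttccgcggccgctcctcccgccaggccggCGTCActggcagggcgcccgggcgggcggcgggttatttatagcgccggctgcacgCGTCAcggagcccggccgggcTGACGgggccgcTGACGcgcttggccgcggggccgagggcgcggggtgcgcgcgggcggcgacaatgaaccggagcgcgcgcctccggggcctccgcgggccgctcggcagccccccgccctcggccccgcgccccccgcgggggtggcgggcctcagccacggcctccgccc
Nr4a3, chr4:48045055-48045354 (plus strand): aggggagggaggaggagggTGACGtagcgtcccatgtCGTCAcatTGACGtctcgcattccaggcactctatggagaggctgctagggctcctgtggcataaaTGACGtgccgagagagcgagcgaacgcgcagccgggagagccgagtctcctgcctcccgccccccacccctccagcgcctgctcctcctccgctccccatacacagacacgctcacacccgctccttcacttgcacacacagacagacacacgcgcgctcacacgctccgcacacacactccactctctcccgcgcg
Npas4, chr19:4989922-4990221 (minus strand): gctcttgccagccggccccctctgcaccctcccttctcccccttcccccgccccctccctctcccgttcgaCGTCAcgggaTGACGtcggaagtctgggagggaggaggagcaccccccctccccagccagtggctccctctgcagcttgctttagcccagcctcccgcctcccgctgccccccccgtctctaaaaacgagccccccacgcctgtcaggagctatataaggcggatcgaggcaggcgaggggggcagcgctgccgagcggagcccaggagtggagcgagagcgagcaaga
Dusp1, chr17:26508423-26508722 (minus strand): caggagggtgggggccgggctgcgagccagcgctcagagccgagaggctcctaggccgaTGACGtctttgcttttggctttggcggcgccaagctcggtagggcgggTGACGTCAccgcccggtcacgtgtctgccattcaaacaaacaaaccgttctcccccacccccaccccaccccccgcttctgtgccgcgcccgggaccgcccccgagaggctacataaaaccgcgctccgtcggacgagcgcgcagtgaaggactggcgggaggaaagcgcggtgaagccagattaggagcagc

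RefSeq windows were found for 29 of the 37 genes, and Arc, Dusp4, Egr1, Egr3, Ier2, Klf10, Sik1 and Trib1 had none in the table used. TGACG or CGTCA occurred at least 1 time in the windows of 17 of the 29 genes, against 23% of all 27025 genes with a window of 300 bases. At least 4 copies occurred in the 3 NR4A genes and in 0.255% of all genes. The palindrome TGACGTCA, which holds both cores overlapping, occurred in Dusp1 and Maff, 2 of 29 genes, against 2.03% of all genes. The CArG box, the element that SRF recognises, occurred in Dusp5, Egr2 and Zfp36, 3 of 29 genes, against 1.81%. These matches describe letters in the windows only, and no binding was measured.

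Nr4a1 (chr15:101254269-101274795) measured 39.9, 47.8, 57.2 and 65.7 CPM in WT on the standard diet. Libraries labelled KO held 17.3, 17.5 and 20.5 CPM in 3 cases and 48.9 CPM in KC888LL, within the WT range. Nr4a1 on the ketogenic diet was 61.96, 72.4, 77.8 and 82.1 CPM in WT and 17.9, 23.6, 37.5 and 39 CPM in KO, with no overlap. For Nr4a1 the log2 fold change, KO over WT, was -1.01 ± 0.34 (SE, adjusted p = 0.231) on the standard and -1.33 ± 0.34 (SE, adjusted p = 0.395) on the ketogenic diet. Nr4a3, the most abundant of the family per kilobase in WT on the standard diet, measured 96.6, 104, 108 and 115 CPM there and 39.3, 54.2 and 60.9 CPM in 3 KO libraries with 99.1 CPM in KC888LL. Nr4a3 on the ketogenic diet read 88.2, 96.3, 106 and 109 CPM in WT and 66.6, 76, 84.2 and 89.3 CPM in KO, and the highest KO library lay above the lowest WT library. Its log2 fold change was -0.74 ± 0.21 (SE, adjusted p = 0.202) on the standard and -0.34 ± 0.20 (SE, adjusted p = 0.635) on the ketogenic diet. For Nr4a2 the values were -0.47 ± 0.21 (SE, adjusted p = 0.324) and -0.45 ± 0.21 (SE, adjusted p = 0.542), nearer to 0 than those of Nr4a3 on the standard diet only.

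The AP-1 and bZIP factors, which pair to bind AP-1 and related sites, did not share 1 direction. Fos in WT on the standard diet measured 8.01, 11.8, 12.1 and 14.4 CPM and in libraries labelled KO 2.51, 3.43, 5.13 and 8.55 CPM, with KC888LL at the top of KO and inside the WT range. Fos on the ketogenic diet was 11.7, 14.7, 18.9 and 20.8 CPM in WT, and in KO it was 1.38, 2.82 and 6.73 CPM in 3 libraries but 25.4 CPM in KC913RR, the highest of all 16. The Fos log2 fold change was -1.24 ± 0.69 (SE, adjusted p = 0.441) on the standard and -0.88 ± 0.65 (SE, adjusted p = 0.706) on the ketogenic diet, and on the latter -2.23 (adjusted p = 0.305) without KC913RR. Fosb, whose truncated splice form builds up with repeated activity, read 9.16, 9.28, 10.8 and 11.2 CPM in WT, 6.60, 8.39 and 9.31 CPM in 3 KO libraries and 10.5 CPM in KC888LL on the standard diet. Fosb on the ketogenic diet read 9.97, 13.3, 14.4 and 15.3 CPM in WT, 5.99, 6.46 and 6.51 CPM in 3 KO libraries and 48.2 CPM in KC913RR. KC913RR alone set the sign of the Fosb difference, which was 0.34 ± 0.57 (SE, adjusted p = 0.882) with all libraries and -1.06 (adjusted p = 0.0225) without it.

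Junb, an AP-1 partner that restrains c-Jun, measured 47.1, 49.2, 56.5 and 61.7 CPM in WT and 30.1, 35.8, 36.6 and 48.3 CPM in KO on the standard diet, with KC888LL the highest of KO and inside the WT range. Junb on the ketogenic diet was 62.7, 68.8, 70.9 and 73.7 CPM in WT and 30.8, 35.5, 48.7 and 58.5 CPM in KO, and every KO library lay below every WT library. The Junb log2 fold change was -0.51 ± 0.18 (SE, adjusted p = 0.239) on the standard and -0.68 ± 0.18 (SE, adjusted p = 0.395) on the ketogenic diet. Jun (chr4:95049034-95052222), the c-Jun gene, had the opposite sign. It measured 110.1, 131, 133 and 142 CPM in WT and 173, 186 and 187 CPM in 3 KO libraries on the standard diet, with KC888LL at 135 CPM inside the WT range. Jun on the ketogenic diet was 126, 141, 147 and 149 CPM in WT and 160.4, 171, 178 and 180.2 CPM in KO, with no overlap. The Jun log2 fold change was 0.40 ± 0.094 (SE, adjusted p = 0.192) on the standard and 0.29 ± 0.094 (SE, adjusted p = 0.417) on the ketogenic diet.

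Atf3, a stress-responsive bZIP factor induced by injury as well as activity, was high in single KO libraries. WT libraries held 0.404, 0.457, 0.691 and 0.695 CPM on the standard and 0.756, 0.820, 0.914 and 1.18 CPM on the ketogenic diet. KC872RL and KC873RR held 6.79 and 5.19 CPM, KC893RL 1.21 and KC888LL 0.541 CPM. On the ketogenic diet KC913RR held 3.88 CPM and the other 3 KO libraries 0.235, 0.387 and 0.972 CPM. Gfap, the astrocyte filament gene that rises in gliosis, measured 2327, 1340 and 2018 CPM in the 3 libraries with the most Atf3 and 288 to 1059 CPM in the other 13. The 1059 CPM was in KC934R, whose 0.387 CPM of Atf3 lay below every WT library. Gfap is 1 of 8 astrocyte markers. In KO under the standard diet 8 of these had log2 fold changes above 0, but with the ketogenic diet 3 lay above 0 and 5 below. A link between Gfap and Atf3 was not tested. The Atf3 log2 fold change, KO over WT, was 2.60 ± 0.85 (SE, adjusted p = 0.217) on the standard and 0.55 ± 0.84 (SE, adjusted p = 0.870) on the ketogenic diet, where it was -0.84 (adjusted p = 0.869) without KC913RR. Maff, a small MAF protein, read 0.471, 0.817, 0.980 and 1.18 CPM in WT and 0.703, 1.08, 1.21 and 1.75 CPM in libraries labelled KO (KC888LL at 0.703) on the standard diet. Its values on the ketogenic diet were 0.683, 0.766, 1.27 and 1.40 CPM in WT, 0.773, 1.12 and 1.23 CPM in 3 KO libraries and 5.89 CPM in KC913RR, with a log2 fold change of 1.11 ± 0.53 (SE, adjusted p = 0.547) on the ketogenic diet and 0.015 (adjusted p = 0.998) without that library. For Fosl2 and Jund the log2 fold changes lay between -0.15 and 0.48 in both genotype comparisons, and the highest, that of Fosl2 on the ketogenic diet, was 0.15 (adjusted p = 0.921) without KC913RR.

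The MAP kinase phosphatases remove activating phosphates from ERK and related kinases, and Dusp6 is selective for ERK. On the standard diet 4 of 4 had a log2 fold change below 0, 3 of them at an unadjusted p under 0.05, where 8544 of 17469 tested genes lay below 0 and 6.69% did so at that p. Dusp6 measured 46.99, 49.4, 52.4 and 60.05 CPM in WT, 20.5, 25.1 and 28.5 CPM in 3 KO libraries and 49.6 CPM in KC888LL, inside the WT range. Dusp6 on the ketogenic diet was 52.4, 55.6, 56.9 and 70.3 CPM in WT and 24.3, 34.2, 39.4 and 44.4 CPM in KO, without overlap. The Dusp6 log2 fold change was -0.76 ± 0.24 (SE, adjusted p = 0.210) on the standard and -0.73 ± 0.24 (SE, adjusted p = 0.417) on the ketogenic diet. Dusp1, which acts on JNK and p38 as well as ERK, measured 11.8, 14.1, 16.3 and 18.2 CPM in WT and 9.91, 10.4, 10.5 and 11.8 CPM in KO on the standard diet, where the groups did not overlap but KC888LL at 11.8 CPM nearly met the lowest WT library. Dusp1 on the ketogenic diet was 15.8, 23.05, 26.2 and 28.5 CPM in WT and 9.90, 10.3, 11.7 and 17.4 CPM in KO, where 1 KO library lay inside the WT range. Its log2 fold change was -0.50 ± 0.19 (SE, adjusted p = 0.260) on the standard and -0.93 ± 0.19 (SE, adjusted p = 0.170) on the ketogenic diet. Dusp4, a nuclear phosphatase, read 22.1, 23.2, 25.1 and 25.9 CPM in WT and 17.3, 17.4 and 18.8 CPM in 3 KO libraries on the standard diet, with KC888LL at 25.3 CPM the 1 inside the WT range. Dusp4 on the ketogenic diet read 19.8, 21.3, 23.8 and 30.1 CPM in WT and 17.6, 21.6, 22.1 and 45.5 CPM in KO, with KC913RR on top, a log2 fold change of 0.16 ± 0.24 (SE, adjusted p = 0.869) and, without KC913RR, -0.22 (adjusted p = 0.812).

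Among the remaining genes, Klf6 (log2 fold change 0.29 ± 0.13 SE, adjusted p = 0.323) lay higher and Sik1, a kinase that curbs CREB co-activators, lay lower (-0.38 ± 0.18 SE, adjusted p = 0.338) at an unadjusted p under 0.05 on the standard diet. Klf6, a zinc finger factor, measured 25.1, 26.5, 28.7 and 30.5 CPM in WT and 33.3, 37.6 and 38.8 CPM in 3 KO libraries on that diet, with KC888LL at 25.8 CPM inside the WT range. With the ketogenic diet Ier2 (-0.78 ± 0.25 SE, adjusted p = 0.417), Klf4 (-0.54 ± 0.18 SE, adjusted p = 0.417) and Sik1 (-0.59 ± 0.18 SE, adjusted p = 0.404) lay lower on that rule. Klf2, Klf10, Ier3, Ier5, Csrnp1, Gadd45b, Gadd45g, Zfp36, Trib1, Tiparp, Rgs2 and Fbxo33 had unadjusted p-values from 0.0699 to 0.930 in the genotype comparisons, with log2 fold changes from -0.75 to 0.44. Several of these turned sign on the ketogenic diet without KC913RR: Ier5 went from 0.44 to -0.14 (adjusted p = 0.885), Trib1 from 0.37 to -0.36 (adjusted p = 0.679) and Gadd45b from 0.15 to -0.54 (adjusted p = 0.527). Over the alternatives on that diet Klf10 ran from -0.74 to 0.12 and Rgs2 from 0.025 to 0.54. Zfp36 ran from -0.30 to 0.42 and Gadd45g from -0.14 to 0.26.

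**Figure D3:**
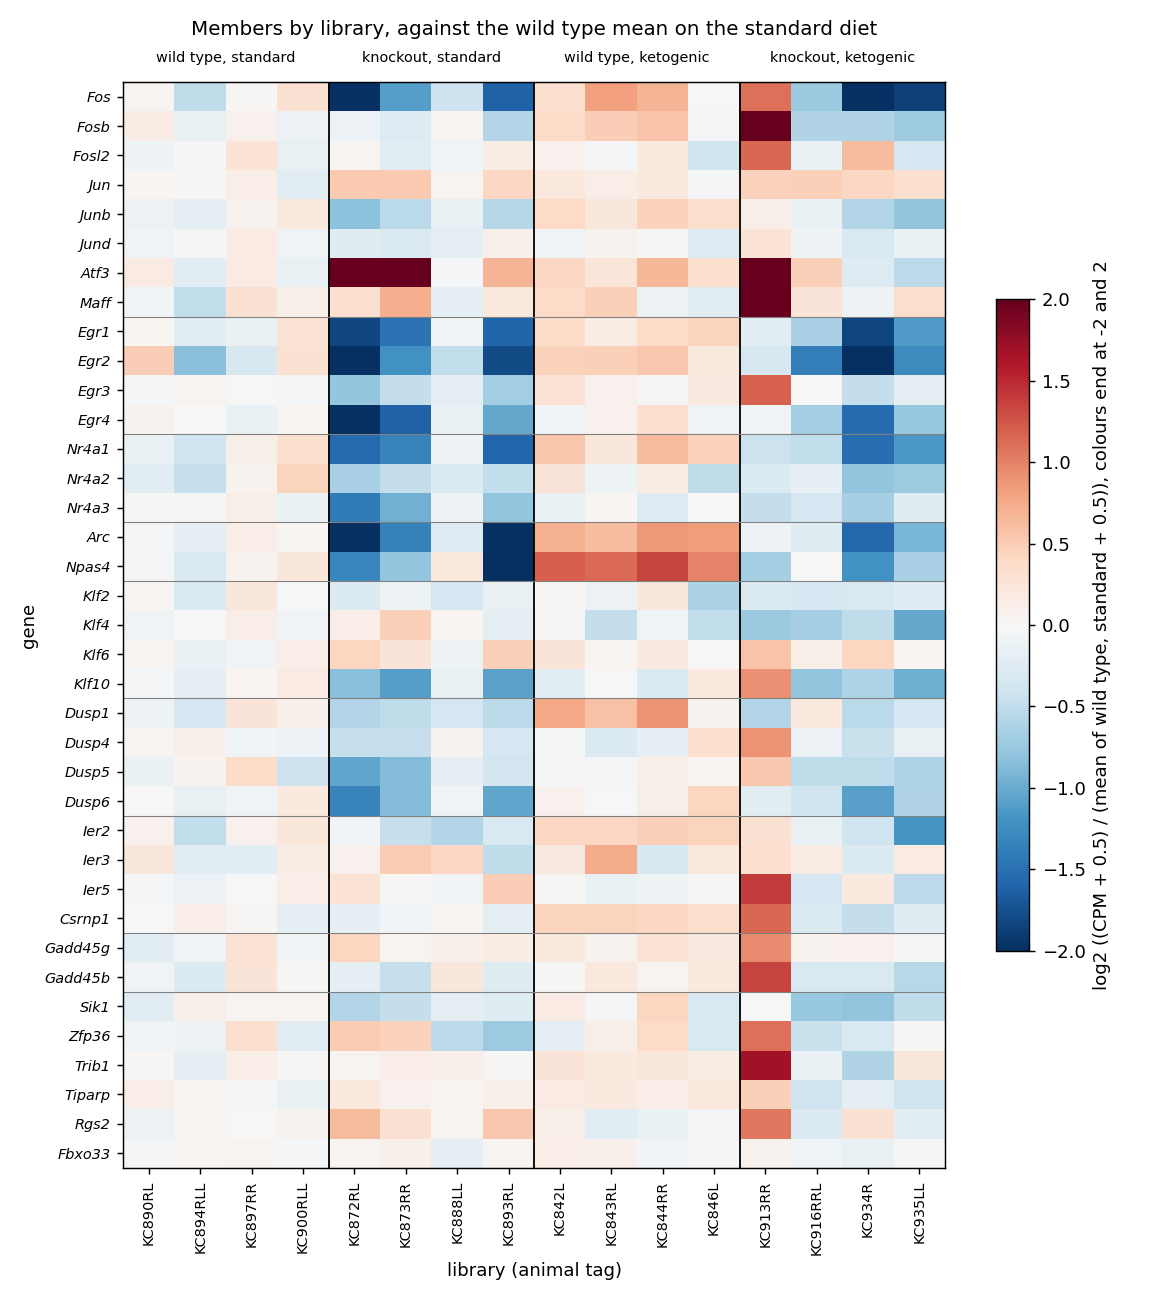
Each of the 37 genes (rows, ordered by role) in each of the 16 libraries (columns, 4 groups), coloured by the log2 ratio of its CPM to the mean of WT on the standard diet, with colours ending at -2 and 2. Arc and Npas4 are above that mean in all 4 WT libraries on the ketogenic diet, and KC913RR is the highest of 16 in 18 rows.

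Leaving out KC888LL changed the calls on the standard diet. Without it, 12 of the 37 genes were called by edgeR, when 5.73% of all genes tested were called. The 9 lower (2.85% of all genes) were Arc at -1.86 (adjusted p = 0.00906), Nr4a1 at -1.52 (adjusted p = 0.00652), Egr1 at -1.65 (adjusted p = 0.0107), Egr2 at -2.59 (adjusted p = 0.0252), Egr4 at -1.60 (adjusted p = 0.00986), Npas4 at -1.41 (adjusted p = 0.0150), Nr4a3 at -1.05 (adjusted p = 0.00149), Dusp6 at -1.09 (adjusted p = 0.00486) and Junb at -0.66 (adjusted p = 0.0480) on the log2 scale. The 3 higher (2.88%) were Jun at 0.49 (adjusted p = 0.00242), Klf6 at 0.39 (adjusted p = 0.0499) and Atf3 at 2.96 (adjusted p = 0.0401). Leaving out any of the other 7 libraries of this comparison called 0 of the 37. Of the 37 genes, KC888LL lay within the range of the 4 WT libraries for 27 (68.7% of all tested genes did), below it for 9 (15.7%) and above it for 1 (15.6%). KC872RL, KC873RR and KC893RL lay within the WT range for 10, 7 and 11 genes (41.4%, 46.4% and 50.3% of all tested genes) and below it for 18, 21 and 20 (28.8%, 26.6% and 24.9%). The 10 microglial markers, all above 0 throughout, summed to 572 CPM in KC872RL and 582 CPM in KC873RR, but to 291 CPM in KC893RL and 281 CPM in KC888LL, inside the 248 to 306 CPM of the other 12 libraries. Summed pan-neuronal markers (5 of 5 above 0 throughout) were 4986 to 5609 CPM in libraries labelled KO and 5641 to 5815 CPM in WT on that diet. Without overlap too, interneuron markers (6 of 6 above 0 throughout) were 706 to 957 against 624 to 673 CPM and neocortex markers (4 of 4) 127 to 163 against 179 to 184 CPM. The neocortex markers did not share 1 direction, with log2 fold changes above 0 for 2 and below 0 for 2 and a median of 0.00089. Astrocyte markers (8 of 8 above 0 throughout) were 4839 to 7231 against 4675 to 5213 CPM. The part of these values in the differences was not tested.

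**Figure D4:**
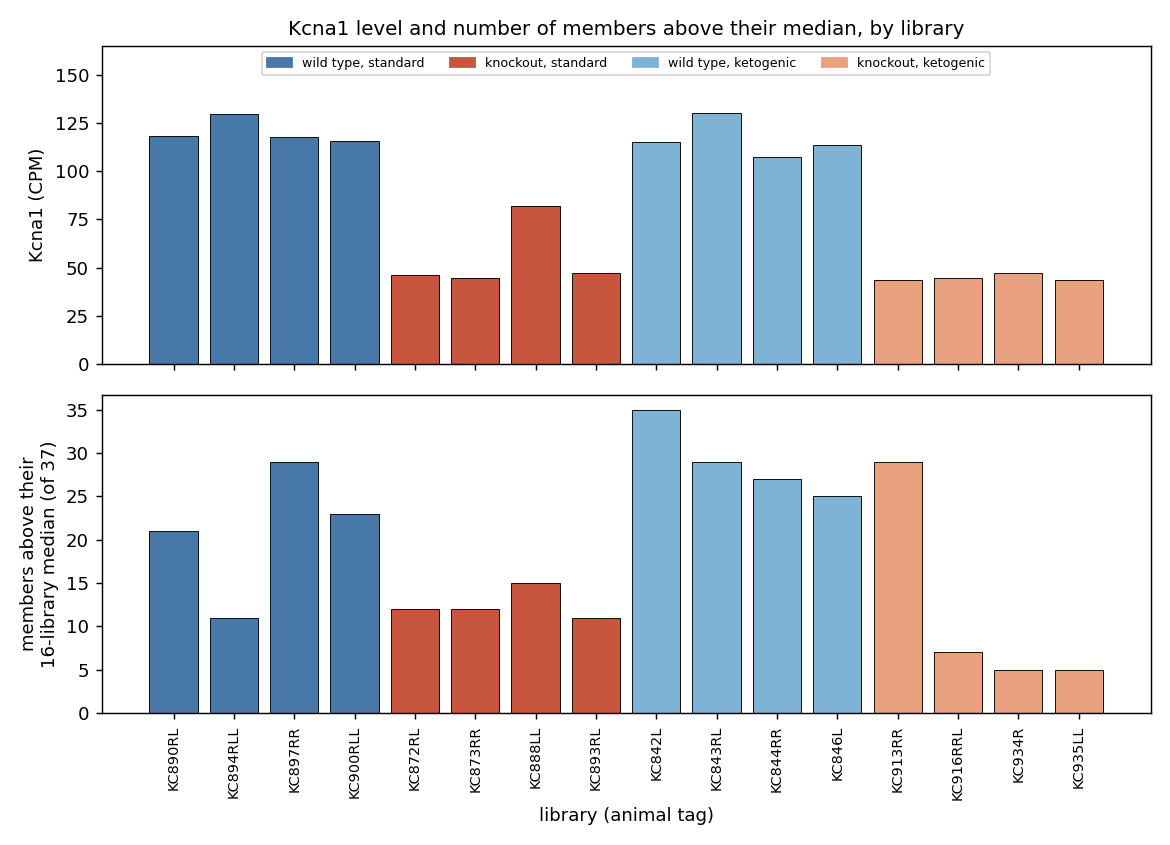
Upper bars give Kcna1 in CPM and lower bars the number of the 37 genes above their own median over 16 libraries, for each library, coloured by group. KC888LL stands at 82.0 CPM of Kcna1 among libraries labelled KO, and KC913RR has 29 genes above the median where the other KO libraries on the ketogenic diet have 5 to 7.

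The comparison of diets within WT asks whether the ketogenic diet alone goes with another level of these genes. Of the 37 genes, 0 were called by edgeR in WT (0.0114% of all tested genes were), and DESeq2 also called 0 (0.0362%). At an unadjusted p under 0.05, 2 genes lay higher, Npas4 and Dusp1 (2.44% of all tested genes), and 0 lower (3.01%). Npas4 measured 7.002, 8.61, 9.25 and 10.4 CPM on the standard and 18.1, 19.9, 20.9 and 23.2 CPM on the ketogenic diet, without overlap, a log2 fold change of 1.22 ± 0.36 (SE, adjusted p = 0.761). Dusp1 had 0.63 ± 0.19 (SE, adjusted p = 0.761), with overlapping ranges, and Arc had 0.77 ± 0.39 (SE, adjusted p = 0.939), with no overlap. In 8 of 37 genes every ketogenic library lay above every standard library (Junb, Arc, Npas4, Ier2, Atf3, Trib1, Tiparp and Csrnp1), as in 2.46% of all tested genes, and in 0 genes did every one lie below (2.42%). Klf4 (-0.26 ± 0.18 SE, adjusted p = 0.977) and Klf2 (-0.11 ± 0.17 SE, adjusted p = 0.998) had the smallest p-values among the genes below 0. Klf2, a factor of vessel lining and T cells, read 4.31, 5.42, 5.59 and 6.47 CPM on the standard and 3.32, 4.97, 5.54 and 6.42 CPM on the ketogenic diet in WT, and KC846L held the 3.32. Fos (0.51 ± 0.64 SE, adjusted p = 0.998), Fosb (0.38 ± 0.59 SE, adjusted p = 0.998), Junb (0.36 ± 0.18 SE, adjusted p = 0.932), Egr1 (0.35 ± 0.38 SE, adjusted p = 0.997) and Nr4a1 (0.48 ± 0.33 SE, adjusted p = 0.980) had positive estimates. In a fit of the 8 WT libraries alone, edgeR called Arc at 0.77 and Npas4 at 1.21 on the log2 scale (adjusted p = 0.000158 for each), 2 of 37 against 0.0661% of all genes tested there. The median of the 37 was 0.15, against -0.0002 over all tested genes. Oligodendrocyte markers, 10 of 10 above 0 in all libraries, summed to 4138 to 6411 CPM in WT on the standard and 3409 to 4338 CPM in WT on the ketogenic diet, and 10 of 10 lay lower on the latter at an unadjusted p under 0.05 (median -0.49). Their part in these differences was not tested.

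The comparison of diets within KO asks whether these genes differ on the ketogenic diet in libraries labelled KO. Klf4, a zinc finger factor of many cell types with high levels in vessel lining, was the 1 of 37 genes called, and it fell; DESeq2 also called Klf4 alone of the 37 (2% of all genes it tested). The share of all tested genes called was 1.16%, and 0.95% were called lower. Klf4 (chr4:55527143-55532466) measured 4.82, 5.79, 6.19 and 7.98 CPM in libraries labelled KO on the standard diet (KC888LL at 5.79) and 2.53, 3.14, 3.37 and 3.81 CPM in KO on the ketogenic diet, with no overlap, a log2 fold change of -0.95 ± 0.18 (SE, adjusted p = 0.0184) and a 95% interval of -1.30 to -0.59. In WT it read 5.34, 5.36, 5.59 and 6.19 and 3.87, 3.89, 5.30 and 5.69 CPM on the 2 diets. The Klf4 call was lost without KC872RL, without KC873RR, in the fit of KO libraries alone, which called 0 of the 37 (0.0535% of all genes), and with the Xist level as a covariate, and its adjusted p ranged from 0.000413 to 0.120 over 14 alternatives. Its log2 fold change stayed between -1.05 and -0.80 over the same 14. Klf4 alone of the 37 was called without KC893RL (1.23% of all genes tested), KC916RRL (0.496%), KC934R (1.08%) or KC935LL (1.04%). Summed endothelial markers, 10 of 10 above 0 in all libraries, were 263 to 301 CPM in KO on the standard and 257 to 291 CPM in KO on the ketogenic diet. Microglial markers were 281 to 582 and 248 to 267 CPM. Oligodendrocyte markers, 10 of 10 above 0, were 5142 to 5658 and 1985 to 3713 CPM. Blood markers, of which Hba-a2 was at 0 in some libraries, were 65.8 to 113 and 17.4 to 32.5 CPM. Choroid plexus markers (6, with Folr1 and Otx2 at 0 in some libraries) were 48.3 to 553 and 31.6 to 53.03 CPM, astrocyte markers (8 of 8 above 0) 4839 to 7231 and 4789 to 6167 CPM and thalamus markers (4 of 4) 42.5 to 94.7 and 33.8 to 86.0 CPM. Among all of these, 8 of 10 oligodendrocyte, 4 of 5 blood, 1 of 8 astrocyte (S100b) and 1 of 4 thalamus markers (Tcf7l2) were called lower. CA3 pyramidal cell markers were higher on the ketogenic diet, at 169 to 193 and 200 to 252 CPM, without overlap. At an unadjusted p under 0.05, 3 of 4 of them lay higher (7.83% of all tested genes), with a median of 0.36. The part of these markers in the differences of Klf4 or other listed genes was not tested.

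No listed gene other than Klf4 passed the adjusted threshold between the diets in KO with all libraries. At an unadjusted p under 0.05, 1 gene lay higher on the ketogenic diet, Egr3 at 0.80 ± 0.29 SE, adjusted p = 0.187, with a 95% interval of 0.24 to 1.36 but 0.30 (adjusted p = 0.276) without KC913RR (7.83% of all tested genes lay higher), and 1 lower, Klf4 (9.1%). The libraries of the 2 diets did not overlap for 1 gene, Klf4, which lay lower (3.72% of all tested genes), and for 0 that lay higher (2.68%). For Arc the log2 fold change was 0.65 ± 0.41 (SE, adjusted p = 0.450) with a 95% interval of -0.15 to 1.45. For Npas4 it was 0.17 ± 0.40 (SE, adjusted p = 0.870), interval -0.60 to 0.95. For Egr1 it was 0.21 ± 0.39 (SE, adjusted p = 0.844), for Nr4a1 0.17 ± 0.35 (SE, adjusted p = 0.855), for Junb 0.20 ± 0.18 (SE, adjusted p = 0.624), for Fos 0.87 ± 0.70 (SE, adjusted p = 0.576) and for Fosb 0.94 ± 0.59 (SE, adjusted p = 0.448). Without KC913RR the values were -0.49 (adjusted p = 0.716) for Fos, -0.47 (adjusted p = 0.200) for Fosb, -0.089 (adjusted p = 0.944) for Egr1, -0.0055 (adjusted p = 0.996) for Nr4a1 and 0.017 (adjusted p = 0.973) for Junb, of which Junb alone kept its sign. The intervals of Arc and Npas4 include 0, and Npas4 ran from -0.097 to 0.78 over the alternatives. Dusp4 had 0.44 ± 0.25 (SE, adjusted p = 0.398), with KC913RR at 45.5 CPM, and 0.050 (adjusted p = 0.912) without it. Atf3 had -1.36 ± 0.76 (SE, adjusted p = 0.387), and -2.76 (adjusted p = 0.128) without KC913RR. The median of the 37 was 0.20, with 29 genes above 0, against 0.0069 over all tested genes, but -0.089 without KC913RR, 0.35 without KC888LL or KC934R, 0.12 without KC872RL and 0.13 without KC893RL. Without KC888LL, 3 genes were called: Arc at 1.25 (adjusted p = 0.0440), Nr4a3 at 0.63 (adjusted p = 0.0158) and Klf4 at -0.97 (adjusted p = 0.00885), when 6.18% of all genes tested were. Without KC913RR, 2 were called, both lower: Klf4 at -0.94 (adjusted p = 0.0422) and Tiparp, a poly-ADP-ribose polymerase gene, at -0.45 (adjusted p = 0.0295), with 0.49% of all genes called. Tiparp read 17.3, 17.7, 17.9 and 19.4 CPM in libraries labelled KO (KC888LL at 17.3) on the standard and 12.5, 12.5 and 14.5 CPM in 3 KO libraries on the ketogenic diet, with 23.3 CPM in KC913RR. The KO libraries on the standard diet enter this comparison and the genotype comparison on that diet, so their values are not independent.

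The interaction asks whether the diet difference is unlike in the 2 genotypes. It called 0 of the 37 genes with edgeR (0% of all tested genes) and 0 with DESeq2 (0.0121%). At an unadjusted p under 0.05, 1 gene lay lower, Klf4 (4.09% of all tested genes), and 0 higher (3.38%). The Klf4 interaction was -0.68 ± 0.25 (SE, adjusted p = 0.654), and for Npas4 it was -1.04 ± 0.53 (SE, adjusted p = 0.704) with a 95% interval of -2.09 to 0.0051 and a range of -1.31 to -0.44 over the alternatives. Among positive estimates the smallest p-values were those of Egr3 (0.65 ± 0.40 SE, adjusted p = 0.751) and Nr4a3 (0.40 ± 0.29 SE, adjusted p = 0.773), which ran from 0.16 to 0.84 and from 0.22 to 0.71 over the alternatives, Egr3 being lowest without KC913RR. For Arc it was -0.12 ± 0.56 (SE, adjusted p = 0.976), and this turned sign over the alternatives, from -0.36 to 0.48. A diet difference of Npas4 or Arc in KO unlike that in WT was therefore not shown.

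KC913RR, a KO library on the ketogenic diet, was the highest of the 16 libraries for 18 of the 37 genes. Over all tested genes it was the highest for 16.7%. Against the 4 WT libraries on the same diet, 20 of the 37 genes lay above the WT range in KC913RR (30.4% of all tested genes did), 11 below (31.3%) and 6 within (38.2%). The 11 below were Junb, Egr1, Egr2, Arc, Npas4, Nr4a1, Nr4a3, Ier2, Dusp1, Dusp6 and Klf4. KC916RRL, KC934R and KC935LL lay below the WT range for 25, 28 and 24 genes (20.5%, 26.8% and 20.1% of all tested genes) and above it for 1, 5 and 1 (20.9%, 27.4% and 19.6%). KC913RR read 48.2 CPM of Fosb, 99.3 CPM of Ier5, 29.2 CPM of Trib1 and 57.5 CPM of Klf10, where the other 3 KO libraries on that diet read at most 6.51, 42.98, 10.3 and 19.6 CPM. At the same time it read 5.35 CPM of Npas4 and 9.90 CPM of Dusp1, the latter the lowest of all 16 libraries. Summed markers in KC913RR were the lowest of 16 for oligodendrocytes (1985 CPM) and thalamus (33.8 CPM). They were the highest for interneurons (964 CPM), CA1 pyramidal cells (704 CPM) and striatum (114 CPM). That holds for the sums only, since by mean log2 CPM of the same markers other libraries lay higher. Interneuron markers read 6.37 in KC913RR and 6.57 in KC872RL. For CA1 the values were 6.21 and, in KC900RLL, 6.40, and for striatum 2.87 and, in KC888LL, 3.13. Dentate granule cell markers had their lowest mean log2 CPM there (4.54), but their sum, 353 CPM, lay inside the 243 to 530 CPM of the other libraries. Gfap read 2018 CPM. The part of these markers in its values was not tested.

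**Figure D5:**
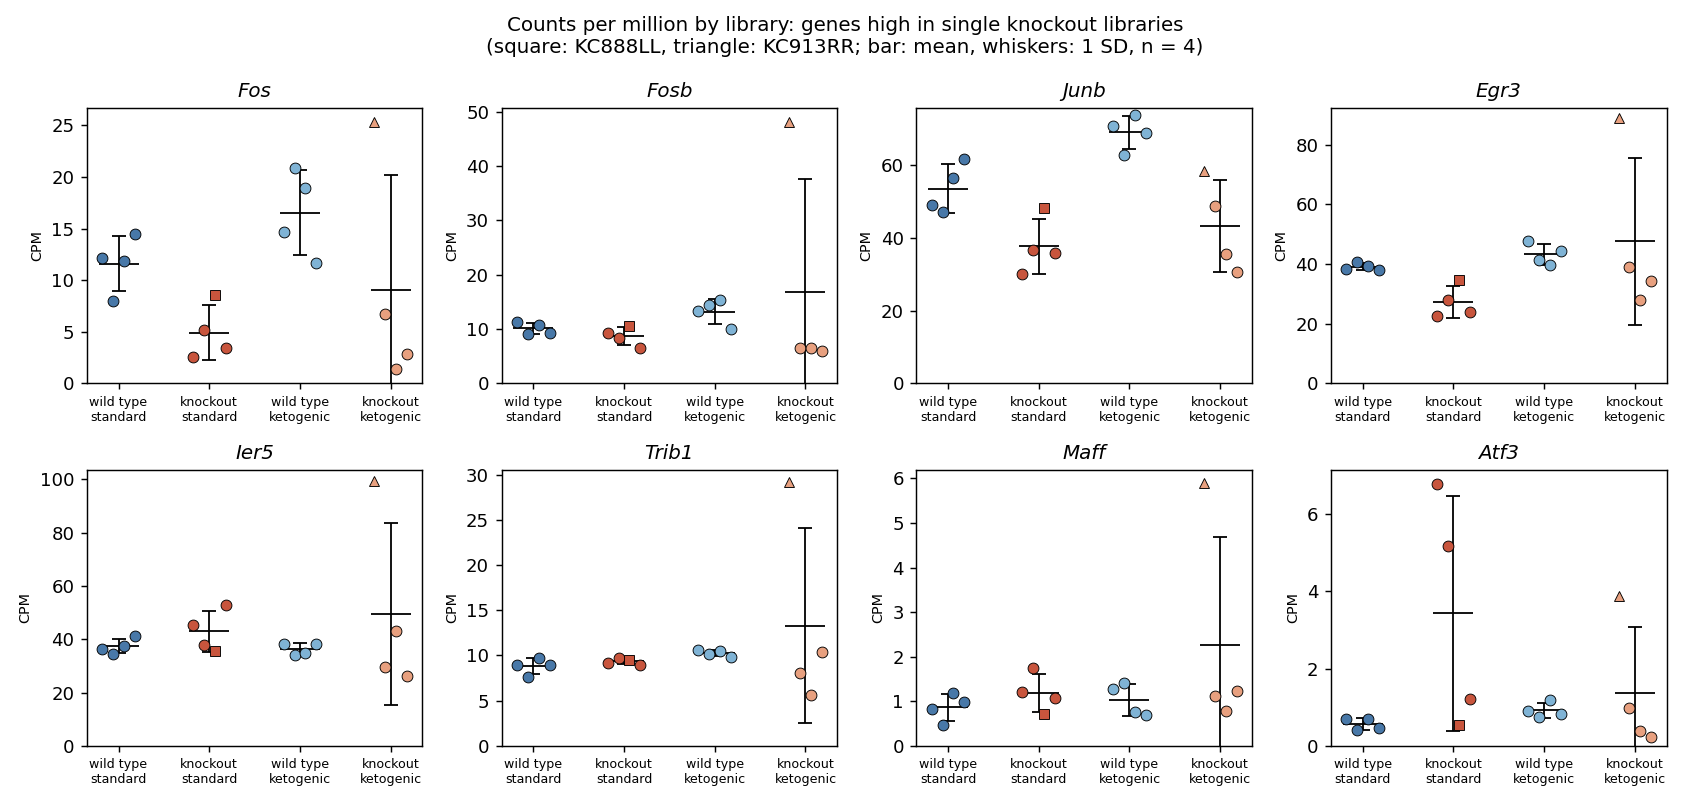
CPM by library for Fos, Fosb, Junb, Egr3, Ier5, Trib1, Maff and Atf3 in the 4 groups (y axes start at 0; bars are means, whiskers 1 SD cut at 0, n = 4). KC913RR, drawn as a triangle, is the top library of all 16 for Fos, Fosb, Egr3, Ier5, Trib1 and Maff, and KC872RL and KC873RR hold the most Atf3.

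Leaving KC913RR out of the genotype comparison on the ketogenic diet called 2 of the 37 genes, when 0.0225% of all genes tested were called. Both were lower in KO: Csrnp1, a nuclear protein of unsettled function, at -0.78 (adjusted p = 0.0180) and Fosb at -1.06 (adjusted p = 0.0225). Leaving out KC846L or KC916RRL instead called 1, Dusp1, with adjusted p-values of 0.0346 and 0.0266 against 0.0395% and 0.0733% of all genes. Csrnp1 measured 12.7, 13.3, 13.5 and 13.6 CPM in WT on the ketogenic diet, 6.96, 8.002 and 8.28 CPM in 3 KO libraries and 22.5 CPM in KC913RR. Blood markers (Hba-a2 at 0 in some libraries) summed to 42.7 to 105.4 CPM in WT and 17.4 to 32.5 CPM in KO on that diet, and oligodendrocyte markers, 10 of 10 above 0 in all libraries, to 3409 to 4338 CPM in WT and 1985 to 3713 CPM in KO. At an unadjusted p under 0.05, 4 of 5 blood, 5 of 10 oligodendrocyte and 3 of 6 glucocorticoid-induced markers lay lower in KO. Of all tested genes 3.97% did. Higher lay 3 of 6 interneuron, 4 of 10 endothelial and 2 of 4 CA3 pyramidal cell markers, against 5.24%, with 1 endothelial marker lower. For choroid plexus markers the median, on the log2 scale, was -2.55, but 0 of 6 passed that p in either direction. Their sum was 1041 CPM in KC844RR (WT), 30.7 to 40.7 CPM in the other WT libraries and 31.6 to 53.03 CPM in KO. For dentate granule cell markers the median was -0.74, where 3 lay below 0 and 2 above. Of these 5, 1 passed that p and 1 had groups that did not overlap, each time higher in KO. The part of these markers in the genotype differences was not tested. As a summary of the 37 genes, the mean log2 CPM was 4.10 ± 0.12 in WT and 3.77 ± 0.18 in KO on the standard diet, and 4.32 ± 0.08 in WT and 3.89 ± 0.53 in KO on the ketogenic diet (SD, n = 4). Single KO libraries on the ketogenic diet ran from 3.48 to 4.66, with KC913RR the highest.

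Other genes of the same response were followed as lists. Of 23 further rapid primary response genes tested, 1 was called lower in KO on the ketogenic diet (0.0114% of all tested genes were), Btg2, an antiproliferative gene induced by activity and DNA damage. Btg2 measured 12.1, 12.6, 13.2 and 14.6 CPM in WT and 10.9, 11.2, 12 and 13.7 CPM in libraries labelled KO (KC888LL at 13.7) on the standard diet, and 18.5, 21.8, 22.99 and 26.9 CPM in WT and 11.9, 12.6, 15.1 and 15.3 CPM in KO on the ketogenic diet. WT on the ketogenic diet lay above the other 3 groups without overlap. The log2 fold change was -0.71 ± 0.12 (SE, adjusted p = 0.0458) for KO over WT on the ketogenic diet and 0.78 ± 0.12 (SE, adjusted p = 0.0415) for the ketogenic over the standard diet in WT, and those comparisons share the WT ketogenic libraries. In the remaining comparisons 0 of the 23 genes were called. In KO on the standard diet 4 of them lay higher (7.64% of all tested genes did) and 3 lower (6.69%) at an unadjusted p under 0.05, and on the ketogenic diet 1 higher (5.24%) and 3 lower (3.97%).

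Of 20 delayed activity-induced effectors, the neurotrophins, peptides and synaptic proteins made in the later wave, 0 were called in any comparison. In KO 2 lay higher and 1 lower at an unadjusted p under 0.05 on the standard diet, and 3 higher and 1 lower on the ketogenic diet, beside the same shares of all tested genes (7.64% and 6.69%, then 5.24% and 3.97%). The median log2 fold change of these 20, KO over WT, was 0.034 and 0.28 on the 2 diets. On the ketogenic diet their mean log2 CPM was 6.37 in KC913RR and 5.10, 5.62 and 5.08 in KC916RRL, KC934R and KC935LL. WT libraries on that diet held 5.21 to 5.36, so without KC913RR the KO libraries lay on both sides of WT. KC913RR was the highest of 16 libraries for 13 of the 20 and for 10 of the 23 further rapid genes. In examples chosen after their values were seen, it held 154 CPM of Bdnf, the neurotrophin gene, where the other 15 libraries held 32.9 to 71.4, and 33.1 CPM of Inhba, the activin subunit, where they held 3.37 to 6.57. Of 22 upstream factors and kinases, 0 were called in any comparison. At an unadjusted p under 0.05, 1 lay higher and 4 lower in KO on the standard diet (7.64% and 6.69% of all tested genes), and 1 higher and 2 lower on the ketogenic diet (5.24% and 3.97%), with medians of -0.057 and -0.0062.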

How the data were processed

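The authors deposited raw counts of reads per gene for 16 libraries of mouse hippocampus; the submitters' processing notes name the genome build mm10 and the tool DESeq2, without a version, and the aligner, counter, library kit and strand setting are not given in the sources used here. Counts were used as deposited. Genes passing edgeR's filterByExpr by group (17469 of 49315) were fitted with edgeR 4.0.16 (R 4.3.3): TMM scaling, 1 coefficient per group over all 16 libraries, robust quasi-likelihood F-test, Benjamini-Hochberg adjustment over all tested genes, called at an adjusted p under 0.05. CPM use effective library sizes, and log2 CPM a prior count of 2. Fold changes are log2. The scripts were tested on simulated data. Alternatives were other size factors, other filters, DESeq2 1.42.0, the compared groups alone, a covariate for the level of Xist, and leaving out each library in turn.

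The 37 genes and all lists were chosen with earlier results of these data known. Values per library are given for Fos, Fosb, Junb, Egr1, Arc, Npas4 and Nr4a1, for each called gene and for the 2 genes of smallest p in each direction in each comparison, in the groups compared; genes of other lists are named if called. Egr4, Egr2, Klf6, Csrnp1 and Tiparp, and the genes given for KC913RR, were added after their values were seen. Gene positions and exon lengths follow GENCODE M21 (GRCm38, the same assembly as mm10). Depth limits the low genes: Egr2, Atf3 and Maff were near or below 1 CPM in many libraries.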

Additional observations from a re-analysis of the deposited data

Results flagged for a closer look

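Within groups of 4 libraries, 11 of 152 sets of values had a highest or lowest library whose gap to the nearest other exceeded Dixon's limit, and chance alone flags about 1 in 20. KC913RR was the highest in 8 of the 11, all in KO on the ketogenic diet. Its values were 48.2 CPM for Fosb, 45.5 for Dusp4, 33.2 for Dusp5, 57.5 for Klf10, 29.9 for Gadd45g, 27.4 for Gadd45b, 5.89 for Maff and 22.5 CPM for Csrnp1. KC888LL was the highest library labelled KO on the standard diet for Egr1, at 92.1 CPM beside at most 34.1 CPM in the others, and for Nr4a1, at 48.9 CPM beside at most 20.5 CPM. KC890RL was the lowest WT library on the standard diet for Sik1, at 12.1 CPM beside at least 14.8 CPM. Genes of the same library are not independent of one another.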

How the results depend on the processing

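No paired analysis was possible because the columns carry animal tags with no replicate number. For KO against WT on the standard diet the number of all genes called was 1 in the fit used above, 18 with no filter, 2 with at least 10 counts in every library, 171 with DESeq2, 0 with only the compared groups and 2 with Xist, and 0 to 1016 with 1 library left out; listed genes called were 1 with DESeq2 and 0 to 12 with 1 library left out. On the ketogenic diet 3 genes were called, 11 with no filter, 41 with DESeq2 and 1 to 13 with 1 library left out; listed genes called were 4 with DESeq2, 1 with only the compared groups and 0 to 2 with 1 library left out. For diets in KO 202 genes were called, 664 with DESeq2, 9 with only the compared groups, 7 with Xist and 28 to 1096 with 1 library left out; listed genes called were 0 with only the compared groups and with Xist and 0 to 3 with 1 library left out. For diets in WT 2 genes were called, 12 with DESeq2, 11 with only the compared groups, 1 with Xist and 0 to 3 with 1 library left out, and 2 listed genes with only the compared groups. The interaction called 0 genes, 2 with no filter and 4 with DESeq2. With 1 library left out the median log2 fold change of the 37 genes ran from -0.35 to 0.13 for the interaction, -0.089 to 0.35 for diets in KO, 0.13 to 0.17 for diets in WT, -0.53 to -0.046 for KO against WT on the ketogenic diet and -0.32 to -0.18 for KO against WT on the standard diet. Log2 fold changes that turned sign included these. Fosb, KO over WT on the ketogenic diet, was -1.06 without KC913RR and ran from -1.06 to 0.63 with 1 library left out. For diets in KO, without KC913RR Fos was -0.49, Fosb -0.47, Egr1 -0.089 and Nr4a1 -0.0055; with Xist Npas4 was -0.0087 and Nr4a1 -0.027; Npas4 was -0.097 without KC893RL and -0.091 without KC916RRL. With 1 library left out these ran from -0.49 to 1.29 for Fos, -0.47 to 1.22 for Fosb, -0.089 to 0.80 for Egr1, -0.097 to 0.78 for Npas4 and -0.0055 to 0.67 for Nr4a1. Klf2 for diets in WT was 0.050 without KC846L and ran from -0.24 to 0.050. The cause of these shifts was not tested. In at least 1 alternative the sign turned for 3 of all 37 genes for KO against WT with the standard and 12 with the ketogenic diet, 22 for diets in KO, 11 for diets in WT and 19 for the interaction.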
